A study of Mus musculus with 9 samples.

Results

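The later interval of postnatal heart growth, from the juvenile at postnatal day 14 (P14) to the adult at day 56 (P56), was examined in 6 ATAC-seq libraries, 3 of each age, out of the 9 in the series. They were selected by the age in their labels, and the other 3 libraries, from day 1 (P1), entered only the estimate of the spread and 1 contrast named below. ATAC-seq marks accessible DNA with a transposase that inserts sequencing adapters where chromatin is open. In the labels, all libraries came from unmodified CD1 (ICR) mice, with no treatment given in the stage labels. Each library pooled several hearts, 6 to 7 at P14 and P56 and 12 at P1, and nuclei were stained for Pcm1, a centriolar satellite protein that coats cardiomyocyte nuclei. A protocol shared by the series mentions surgery and does not say whether these hearts underwent it, and the labels name neither sex, batch nor hour of collection. The p-values therefore measure the spread between pools of hearts. The deposited tables gave a read count for each gene at its transcription start site (TSS) and for each peak of 1 common list.

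In mice the weeks after P14 complete cardiomyocyte maturation. The cells have by then largely left the cell cycle, and they go on growing in size, packing in sarcomeres and mitochondria, burning mainly fatty acids and refining calcium release. Clock transcription factors bind the E-box CACGTG and drive daily rhythms of many metabolic and ion channel genes in the adult heart. Open promoters mark genes that can be transcribed, but accessibility is not itself a measure of RNA, and in tissue pools fewer nuclei of a type and less opening per nucleus cannot be told apart.

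Counts at the TSS totalled 481217 to 893032 per P14 library and 874639 to 1468352 per P56 library, and peak counts 316311 to 559445 and 604684 to 1143607. Rank correlations of counts scaled to a common library size (CPM, with TMM scaling) between TSS profiles were 0.787 to 0.827 within P14, 0.849 to 0.882 within P56 and 0.780 to 0.874 between the ages. Of 9 cardiomyocyte markers, 5 contractile genes (Myh6, Myl2, Tnnt2, Tnni3 and Ttn) lay at or above the 97.0th percentile of all TSS regions at both ages. The other 4 ranked lower at P14 and P56: Actn2 at percentiles 75.5 and 84.6, Ryr2 at 59.7 and 80.1, Nppa at 54.95 and 66.1, and Pln at 27.7 and 56.6. P56 replicate 2 stood apart. It was the deepest of the 6 libraries, and it was the highest of the 6 at 24.1% of all TSS regions but at 87.5% of the 2037 regions with an unadjusted p below 0.05 and a higher P56 value. The share of TSS counts in each library's own top 10% of regions was 38.6% there, and 35.2% ± 0.692 at P14 against 36.9% ± 1.50 at P56 (SD, n = 3, exact permutation p = 0.2). P56 replicate 2 was the lowest library at 21.2% of all TSS regions, and at 51.9% of the 1365 regions lower at that unadjusted p. In peaks it was the lowest at 30.1% of all and at 75.25% of the 2105 lower ones. Values without this library are given beside many of the results that rest on it.

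The comparison of P56 with P14 asked which promoters and peaks still change accessibility after the second postnatal week. Among 33747 TSS regions tested with edgeR's quasi-likelihood test, 1 passed an adjusted p of 0.05 (0.00296% of regions), and it rose. It was the TSS of Pnmt, which encodes phenylethanolamine N-methyltransferase, the enzyme that turns noradrenaline into adrenaline. Its CPM was 38.9, 35.9 and 67.6 in the P14 libraries and 100.4, 179 and 113 in the P56 libraries. The groups did not overlap, and the P56 values were all above every P14 value. The rise was 1.50 ± 0.247 (SE) on the log2 scale, or 2.83-fold, with an edgeR adjusted p of 0.0258. At P1 the same region had 28.7, 39.1 and 36.8 CPM, near the P14 values. Pnmt lies at chr11:98386623-98388180 (GRCm38), and it begins 1669 bp beyond the end of Tcap, which encodes the Z-disc protein telethonin. TSS counts of such close neighbours may share reads. The call was lost in the fit without P56 replicate 2 (log2 1.20, adjusted p = 0.203) and without several other single libraries listed at the end.

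A further 11 TSS regions had an edgeR adjusted p of 0.0767 and did not pass the threshold, so that 12 regions (0.0356%) lay below 0.1, all higher at P56 and none lower. Their log2 differences, Pnmt included, ran from 1.00 to 2.33. In all 12, every P56 library was above every P14 library, as in 7% of all TSS regions (6.96% had every P56 library below), and P56 replicate 2 was the highest. Usp2, a deubiquitinase gene whose transcript cycles with the clock, had the highest level of these regions. Its CPM was 136, 177 and 182 at P14 and 235, 507 and 308 at P56 (log2 difference 1.11 ± 0.204 SE). Per1 and Ciart, both repressors within the circadian clock, were among them too. Per1 had 81.1, 82.3 and 67.6 CPM at P14 and 115, 266 and 148 at P56 (log2 difference 1.20 ± 0.238 SE). Ciart had 27.8, 29.5 and 41.0 CPM at P14 and 63.4, 98.6 and 74.6 at P56 (log2 difference 1.299 ± 0.263 SE). Both genes were near their P14 level at P1, with log2 changes from P1 to P14 of -0.25 and -0.09.

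Mitochondrial and contractile genes made up part of the same group. Atp5a1, which encodes the alpha subunit of the ATP synthase, had 54.4, 40.1 and 79.9 CPM at P14 and 96.9, 202 and 101 at P56 (log2 difference 1.22 ± 0.251 SE). Mief1, whose product recruits the mitochondrial fission machinery, had 22.2, 16.9 and 20.5 CPM at P14 and 52.9, 76.0 and 44.3 at P56 (1.53 ± 0.301 SE). Tcap had 34.4, 59.1 and 32.8 CPM at P14 and 67.0, 143 and 103 at P56 (1.35 ± 0.275 SE). The gap between the ages was wide for Mief1 and narrow for Tcap. Six5, a homeobox gene next to the myotonic dystrophy kinase gene Dmpk, differed by 1.54 ± 0.299 (SE) and the secretory pathway gene Ssr2 by 1.69 ± 0.336. The remaining regions were Adamtsl5, Rhbdl1, a rhomboid-like protease gene, and the serine tRNA gene n-TStga1. Rhbdl1 had 43.3, 46.4 and 43.0 CPM at P14 and 76.6, 125 and 93.2 at P56 (1.16 ± 0.237 SE), the tightest P14 values of the group.

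**Figure D1:**
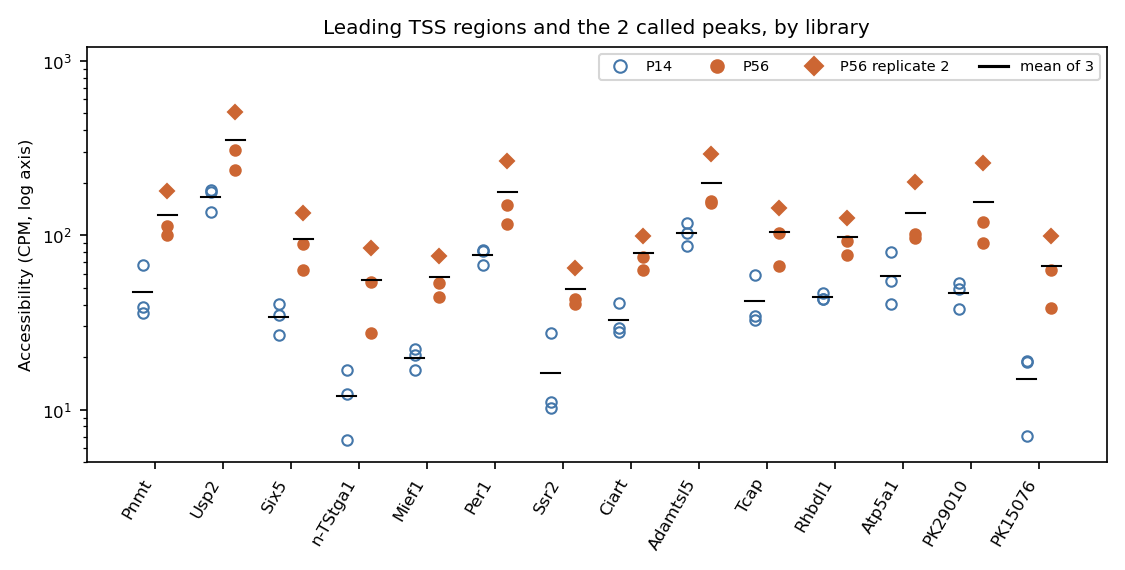
Accessibility in CPM (log axis) in each P14 library (open circles) and P56 library (filled symbols; diamond, P56 replicate 2) for the 12 TSS regions with an adjusted p below 0.1 and the 2 called peaks, with bars at the mean of 3 libraries. In every column the P56 symbols lie above the P14 symbols, and the diamond is the highest.

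Promoter sequences are shown for the clock genes of this group and for comparison genes with and without the clock E-box. Of the 12 genes, 7 matched RefSeq's promoter table (GRCm38.p6), with 8 starts, and 3 of the 8 windows of 250 bases upstream of a start held at least 1 CACGTG, whose reverse complement is the same word. Ciart (chr3:95882229-95882478, minus strand) held 3, at 116, 58 and 44 bases before the start. Per1 (chr11:69098699-69098948, plus strand) held 1 before its upstream start, 166 bases away, and none before its downstream start (chr11:69099902-69100151). Rhbdl1 (chr17:25837128-25837377, minus strand) held 1, at 178 bases, and the Usp2 window (chr9:44084670-44084919, plus strand) none. The genes Usp2 and Per1 begin upstream of these windows, at chr9:44067021 and chr11:69095108, and no window there was searched. Each sequence runs 5′ to 3′ on the gene's strand and ends at the base before the start, with the E-boxes in capitals.
Ciart: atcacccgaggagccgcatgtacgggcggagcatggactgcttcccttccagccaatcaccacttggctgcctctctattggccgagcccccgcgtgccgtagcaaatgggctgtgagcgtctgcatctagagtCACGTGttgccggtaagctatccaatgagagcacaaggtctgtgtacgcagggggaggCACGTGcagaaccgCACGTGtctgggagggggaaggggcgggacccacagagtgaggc
Per1, upstream start: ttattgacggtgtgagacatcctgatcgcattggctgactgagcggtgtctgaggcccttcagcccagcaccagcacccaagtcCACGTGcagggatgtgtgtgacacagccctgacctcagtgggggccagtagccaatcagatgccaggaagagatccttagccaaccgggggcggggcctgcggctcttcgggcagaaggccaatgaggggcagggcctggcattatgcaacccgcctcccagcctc
Per1, downstream start: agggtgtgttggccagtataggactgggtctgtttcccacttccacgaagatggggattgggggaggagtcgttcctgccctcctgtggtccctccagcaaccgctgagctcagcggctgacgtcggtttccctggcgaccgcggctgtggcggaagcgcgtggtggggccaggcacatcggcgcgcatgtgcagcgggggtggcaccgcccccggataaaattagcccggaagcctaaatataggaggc
Rhbdl1: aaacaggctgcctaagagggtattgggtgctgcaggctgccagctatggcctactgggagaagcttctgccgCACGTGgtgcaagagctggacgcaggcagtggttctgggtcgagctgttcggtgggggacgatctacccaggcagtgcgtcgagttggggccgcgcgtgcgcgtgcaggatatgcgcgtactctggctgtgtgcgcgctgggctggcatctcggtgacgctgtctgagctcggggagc
Usp2: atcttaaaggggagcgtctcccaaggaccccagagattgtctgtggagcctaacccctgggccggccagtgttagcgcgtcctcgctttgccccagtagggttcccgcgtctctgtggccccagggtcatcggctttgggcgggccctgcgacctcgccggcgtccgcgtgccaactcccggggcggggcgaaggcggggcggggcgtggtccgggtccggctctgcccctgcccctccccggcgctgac
The E-box was present in 6.82% of the 19566 promoter windows of all tested genes. Among the genes with an unadjusted p below 0.05 it was in 9.94% of 1872 windows where P56 was higher and in 5.13% of 604 windows where P56 was lower. The GC box GGGCGGG, searched on both strands, was in 30.9% of all windows, 45.2% of the higher and 20.5% of the lower ones, and Usp2 held 3 copies. The opposite order was seen for the TATA box, spelled TATAAA and searched on both strands, in 10.6%, 6.89% and 15.1% of the windows. Promoters of the higher set had a median GC of 61.7%, of the lower set 52.0% and of all tested genes 56.3%. The part of base composition in these shares was not tested. Other words were searched too, among them the CCAAT box, in 33.9%, 35.1% and 34.9% of the windows, and the GATA site AGATAA, in 8.59%, 6.25% and 11.4%. These shares describe letters in a window and not bound sites.

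In a fit of the P14 and P56 libraries alone, the filter and scaling were redone and no P1 library entered the estimate of the spread. Of 26724 TSS regions tested there, 23 were called and all were higher at P56. They included all 12 above. The 23 had log2 differences of 0.88 to 2.30, P56 above P14 without overlap in 23 of 23, and P56 replicate 2 as the highest library in 23 of 23. The other 11 were chosen for naming after their values were seen. They comprised Nmrk2, Hspa8, Hsp90ab1, Slc2a4, Dmpk, Polr3e, Tnni3, Tnnt1, Myh7, Mir133a-2 and Rnu1a1. Nmrk2, a muscle nicotinamide riboside kinase that feeds NAD synthesis, had 53.3, 86.5 and 135 CPM at P14 and 158, 315 and 165 at P56. Slc2a4, the insulin-responsive glucose transporter GLUT4, had 47.8, 59.1 and 59.4 CPM at P14 and 88.1, 174 and 104 at P56. The chaperone gene Hspa8 differed by 1.33 on the log2 scale in that fit. Without P56 replicate 2 none of the 23 was called (edgeR adjusted p 0.203 to 0.987), while the difference stayed above 0 in 23 of 23, between 0.48 and 1.85.

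Genes of the heart were then read by function from 15 lists, with the unadjusted test used only to count, beside a background of 6.04% of all TSS regions higher and 4.04% lower at an unadjusted p below 0.05 and a median log2 difference of -0.02. Apart from Pnmt, which is in no list, no list member passed the adjusted threshold. Oxidative phosphorylation and the TCA cycle had 26 tested genes, of which 17 were higher by that count and none lower, with 25 differences above 0 and a median of 0.69. Besides Atp5a1, the complex I gene Ndufv1 was the nearest to the threshold, with 83.3, 80.1 and 81.9 CPM at P14 and 106, 205 and 136 at P56 (0.87 ± 0.202 SE, adjusted p = 0.181). Mean log2 CPM of this list was 5.29 to 5.45 in the P14 libraries and 5.61 to 6.52 in the P56 libraries, without overlap. Leaving out P56 replicate 2, the count was 7 of 26 and the median 0.37, against 2.32% of all regions.

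Sarcomere genes gave a similar count with more overlap. Of 24 genes of the adult contractile apparatus, 15 were higher by the unadjusted count and none lower, and the median difference was 0.65. Cardiac troponin I, Tnni3, had 139, 139 and 117 CPM at P14 and 171, 406 and 200 at P56 (0.98 ± 0.239 SE, adjusted p = 0.225). The list's mean level nevertheless overlapped between the ages, since P56 replicate 1 (6.13) lay below the highest P14 library (6.21). In the fit without P56 replicate 2 the count was 4 of 24 and the median 0.26. Among 20 fetal contractile and stress genes 7 were higher and 1, the atrial light chain Myl4, lower, against 2 and 0 without P56 replicate 2. Myh7, the slow myosin heavy chain, had 92.2, 154 and 145 CPM at P14 and 174, 433 and 241 at P56 (1.16 ± 0.249 SE, adjusted p = 0.113). Slow skeletal troponin T, Tnnt1, begins 6553 bp from Tnni3, and the near-equal counts of both genes in each library may be shared reads. Tnni1, the fetal troponin I, had 131, 124 and 123 CPM at P14 and 116, 104 and 93.2 at P56 (adjusted p = 0.627), with every P56 library below every P14 library.

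Fuel genes followed. Glucose use and glycolysis had 13 of 26 genes higher and none lower, a median of 0.56 and list levels that did not overlap. Pgam2, the muscle phosphoglycerate mutase, had 31.1, 29.5 and 34.8 CPM at P14 and 44.0, 99.3 and 51.3 at P56. Fatty acid uptake and oxidation, the main fuel path of the adult heart, had 7 of 26 higher and none lower (median 0.43), led by Acadvl, the very long chain acyl-CoA dehydrogenase, with 56.6, 67.5 and 71.7 CPM at P14 and 96.9, 118 and 99.0 at P56. Cpt1b, which admits fatty acids to muscle mitochondria, had 83.3, 105 and 79.9 CPM at P14 and 100.4, 157 and 93.2 at P56, and the ages overlapped (adjusted p = 0.544). Nuclear receptors and coactivators that control these genes had 7 of 28 higher and none lower (median 0.22). Ppargc1b, a coactivator of mitochondrial genes, had 32.2, 42.2 and 38.9 CPM at P14 and 45.8, 87.3 and 62.9 at P56. Its partner receptor gene Esrra had 68.9, 80.1 and 71.7 CPM at P14 and 84.6, 183 and 105 at P56. Without P56 replicate 2 the counts of the glucose, fatty acid and receptor lists were 3, 1 and 0 higher.

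Calcium handling and ion channel genes had 10 of 35 higher and none lower, with a median of 0.33 that was 0.06 without P56 replicate 2. Atp2a2, the SERCA calcium pump of the sarcoplasmic reticulum, had 33.3, 35.9 and 28.7 CPM at P14 and 41.4, 118 and 65.2 at P56 (1.21 ± 0.341 SE, adjusted p = 0.287). Hrc, a calcium-binding protein of the same store, had 25.5, 27.4 and 16.4 CPM at P14 and 35.2, 88.0 and 48.9 at P56. Neither gene's libraries overlapped between the ages, and the spread within P56 was wider than the gap between the groups.

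Among 19 circadian clock genes 9 were higher and none lower, with a median of 0.50 and list levels of 5.51 to 5.63 at P14 and 5.67 to 6.47 at P56. The 9 held clock repressors and output regulators: Per1, Per3, Ciart, Nr1d1, Nr1d2, Dbp, Tef, Hlf and Bhlhe41, and 8 of them had no overlap between ages. Nr1d2, a haem-binding repressor, had 43.3, 54.8 and 53.3 CPM at P14 and 70.5, 153 and 92.0 at P56 (1.09 ± 0.310 SE). Tef, an output factor of the PAR bZIP family, had 74.4, 88.6 and 92.2 CPM at P14 and 104, 204 and 157 at P56 (0.89 ± 0.232 SE). The activator genes had other values: Arntl differed by 0.17, Clock by -0.36 and Npas2 by -0.31, each with overlapping libraries. Per2 (0.26) and Cry2 (0.38) overlapped as well. In the absence of P56 replicate 2 the list had 5 higher and 1 lower and a median of 0.22. The labels do not give the hour at which hearts were taken, and its part in these values was not tested.

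**Figure D2:**
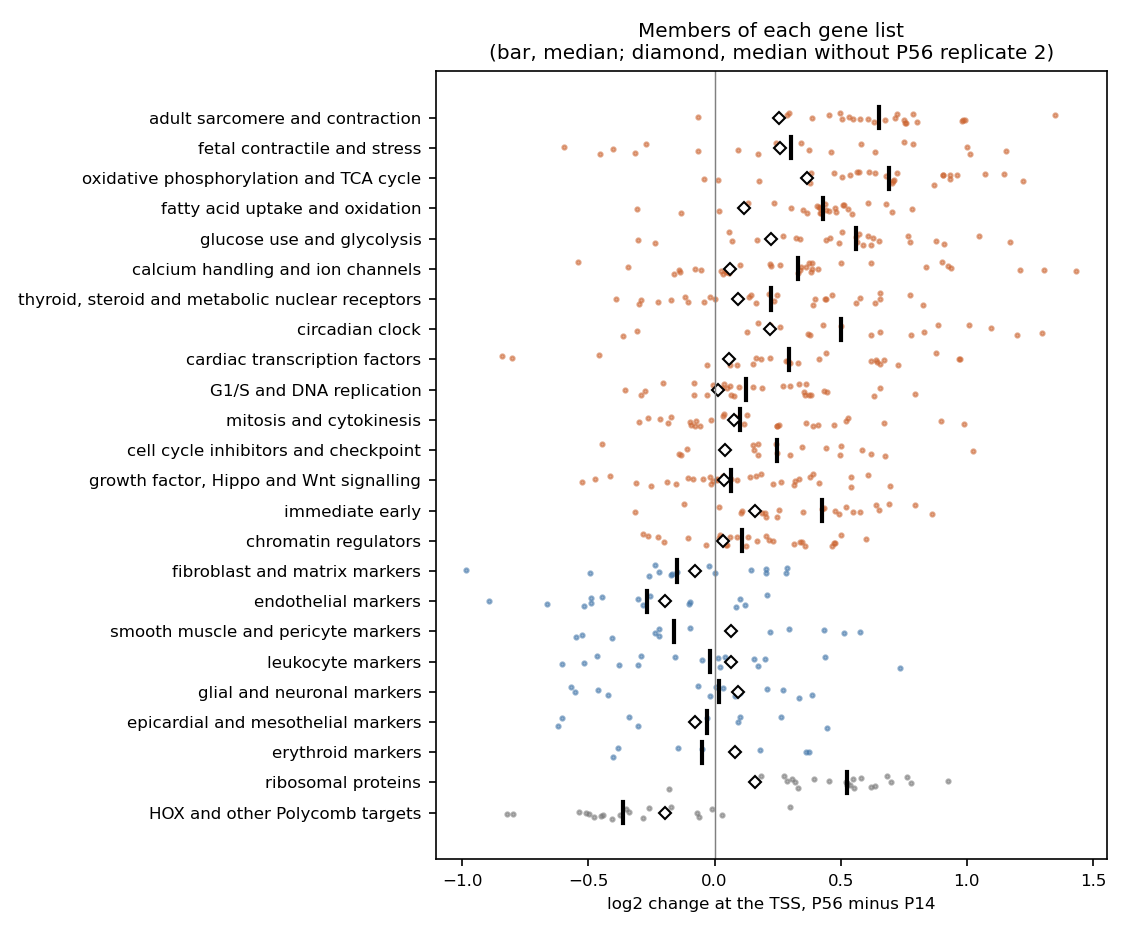
Each point is the log2 change at the TSS of 1 list member, P56 minus P14; black bars are list medians and open diamonds the medians without P56 replicate 2 (orange, heart lists; blue, markers of other cell types; grey, ribosomal and Polycomb lists). The heart maturation lists have medians above 0 that move toward 0 without that library, 0.65 to 0.26 for sarcomere genes.

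Cardiac transcription factors had 8 of 26 higher and 2 lower (median 0.29), and 2 higher and 2 lower without P56 replicate 2 (median 0.06). Mef2a, an activator of muscle genes, had 38.9, 56.9 and 47.1 CPM at P14 and 71.4, 136 and 62.9 at P56 (0.97 ± 0.267 SE, adjusted p = 0.287). The 2 lower were Gata5 and Hand1, factors of early heart formation. Gata5 had 35.5, 40.1 and 45.1 CPM at P14 and 22.02, 21.1 and 23.3 at P56 (-0.84 ± 0.272 SE, adjusted p = 0.315), the P56 libraries lying close together, and Hand1 had 45.5, 35.9 and 41.0 CPM at P14 and 27.3, 18.8 and 25.6 at P56. Gata4 and Nkx2-5, core factors of the adult cell, had overlapping libraries, as had Mef2c. Tbx5 and Mef2d did not overlap. Tbx5 had 38.9, 38.0 and 38.9 CPM at P14 and 53.7, 68.5 and 58.3 at P56 (0.64 ± 0.254 SE, adjusted p = 0.394).

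By count, the cell cycle lists stood nearer to all regions than the heart lists above did. So did the medians of the G1/S and mitosis lists, while that of the inhibitors (0.25) was above the nuclear receptor median of 0.22. The G1/S list had 2 of 30 higher and none lower (median 0.12), the mitosis list 4 of 28 and none (0.10), and the inhibitors 2 of 19 and none (0.25). With P56 replicate 2 left out, these lists had 2, 1 and 1 higher, and medians of 0.01, 0.08 and 0.04. Mean levels of the G1/S list (5.16 to 5.21 at P14, 5.28 to 5.50 at P56) did not overlap between the ages. Those of the mitosis list (5.129 to 5.145 at P14, 5.17 to 5.46 at P56) did not either, while those of the inhibitors did. Birc5, which encodes survivin of the chromosomal passenger complex, had 15.5, 19.0 and 32.8 CPM at P14 and 37.0, 50.4 and 39.6 at P56. Wee1, a kinase that holds back entry to mitosis and also a clock target, had 45.5, 35.9 and 32.8 CPM at P14 and 59.9, 107 and 69.9 at P56. Cdk1, the mitotic kinase, had 84.4, 97.0 and 86.0 CPM at P14 and 85.4, 94.8 and 66.4 at P56, and Cdkn1a, the inhibitor p21, differed by -0.11 ± 0.200 (SE). Ccnd1 and Ccnd2, D-type cyclins, differed by 0.36 and -0.20.

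Growth factor, Hippo and Wnt genes had 4 of 33 higher and 3 lower and a median of 0.06, against 2 higher and 1 lower without P56 replicate 2. Insr, the insulin receptor gene, had 77.7, 78.0 and 75.8 CPM at P14 and 117, 144 and 88.5 at P56 (adjusted p = 0.315). Igf1r, the receptor for insulin-like growth factor, lay the other way, with 111, 143 and 127 CPM at P14 and 98.7, 98.6 and 85.0 at P56 (adjusted p = 0.416). Of 23 immediate early genes, 5 were higher, Dusp1 and Egr1 first, and of 30 chromatin regulators 2, Hdac4 and Tet3; neither list had a lower member. Leaving out P56 replicate 2, none of the immediate early genes (median 0.43, then 0.16) and 1 of the chromatin regulators was higher. Mean levels of the growth factor, immediate early and chromatin lists did not overlap between the ages.

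**Figure D3:**
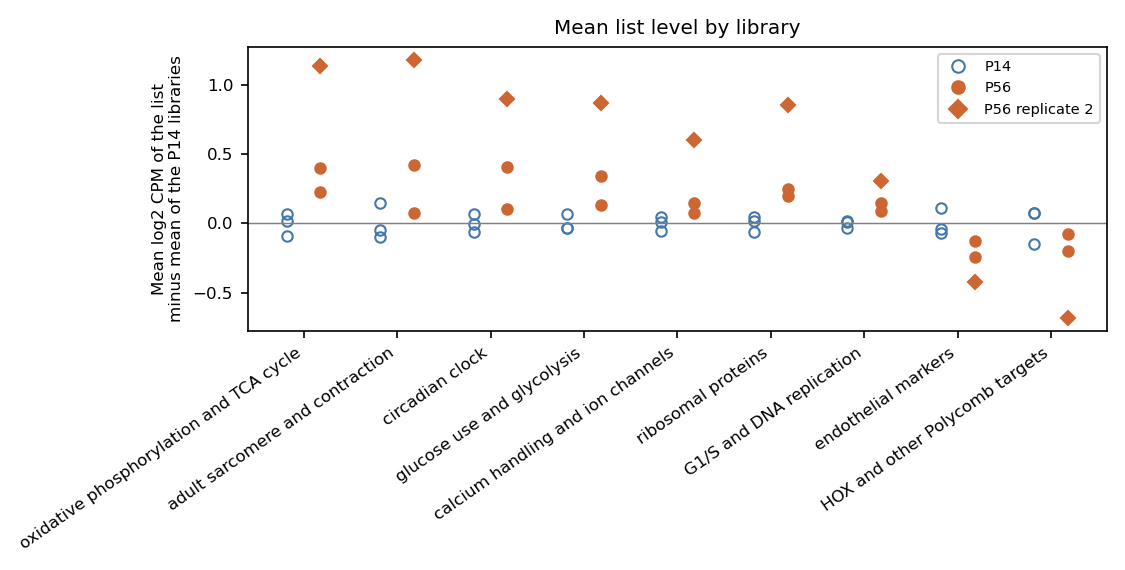
Mean log2 CPM of 9 lists in each library, given as the difference from the mean of the 3 P14 libraries (open circles, P14; filled circles, P56; diamond, P56 replicate 2). The oxidative phosphorylation list runs from 5.61 to 6.52 at P56 against 5.29 to 5.45 at P14, and the endothelial and Polycomb lists lie below their P14 mean in each P56 library.

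Markers of other cell types were read as a check on the sort. The 16 endothelial markers had 3 lower and none higher, a median of -0.27 and levels of 5.12 to 5.41 at P56 below 5.47 to 5.65 at P14. Of the same markers 1 was lower without P56 replicate 2, with a median of -0.20. The 3 were Tie1, a vascular receptor kinase, with 23.3, 35.9 and 26.6 CPM at P14 and 12.3, 20.3 and 10.5 at P56, the transcription factor Fli1, and the junction protein Esam (adjusted p 0.357 to 0.444). Among 15 fibroblast and matrix markers 1 was lower, Col3a1, a fibrillar collagen gene, with 31.1, 31.6 and 34.8 CPM at P14 and 12.3, 23.3 and 11.7 at P56 (adjusted p = 0.315). Medians of the smooth muscle, leukocyte, glial, epicardial and erythroid lists were -0.16 to 0.02, the levels of all 5 overlapped, and without P56 replicate 2 the medians were -0.08 to 0.09. By the unadjusted count 2 of 12 smooth muscle markers were higher and 2 of 9 epicardial markers lower. Of 16 leukocyte markers 1 was higher and 1 lower, of 14 glial markers 1 was lower, and no erythroid marker was either. Without P56 replicate 2 the smooth muscle, leukocyte and glial lists had 1 higher each and the epicardial list 1 lower. No tested marker of these lists was at 0 in any of the 6 libraries. The part of other cell types in the differences above was not tested. Ribosomal protein genes, active in every cell, had 4 of 24 higher and none lower (median 0.53, and 0.16 without P56 replicate 2). Their mean levels did not overlap between the ages. The 20 HOX and other Polycomb targets, silent in most cells, had none higher and 4 lower, with overlapping levels (median -0.36, and -0.20 without that library).

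No TSS region passed the threshold in the lower direction, where 1365 regions had an unadjusted p below 0.05 in edgeR's test. In the fit without P56 replicate 2, 849 of 33756 regions were lower by that count. The DESeq2 Wald test called 1 region, which was higher, and limma-voom called none in either direction. Some other settings called 1 to 8 lower. Outside the rule for naming, 1600014C10Rik was called lower with library size alone (-0.68, edgeR adjusted p = 0.0489), with loess offsets (-0.71, adjusted p = 0.0435) and after thinning (-0.69, adjusted p = 0.0484), and Gm10800 after thinning (-0.76, adjusted p = 0.0300). The named regions with the smallest p were Prr16, Myo3a, Duxf3, Mecom, Ephb6, Vsig10l, H2-M3, Csmd1, Lrrc10b and Slit2 (adjusted p 0.287 to 0.315). Prr16, a gene linked to cell size, had 50.0, 42.2 and 26.6 CPM at P14 and 22.9, 16.6 and 16.3 at P56 (-1.13 ± 0.299 SE). Mecom, a zinc finger transcription factor of stem and endothelial cells, had 90.0, 103 and 86.0 CPM at P14 and 67.0, 59.4 and 53.6 at P56 (-0.62 ± 0.189 SE). Slit2, a guidance ligand, had 172, 135 and 168 CPM at P14 and 124, 114 and 100.2 at P56 (-0.50 ± 0.157 SE). Lack of overlap was a condition for naming these regions and is no separate result. Of all TSS regions, 6.96% had every P56 library below every P14 library.

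Of 25885 peaks, 2 passed the threshold (0.00773%), and both rose. PK29010 (chr18:10778866-10782655) lay in Mib1 and overlapped Mir133a-1hg, host transcript of muscle microRNAs that restrain smooth muscle genes and proliferation. It had 49.1, 52.9 and 37.9 CPM at P14 and 90.6, 258 and 119 at P56 (log2 change 1.75 ± 0.315 SE, edgeR adjusted p = 0.00901). PK15076 (chr13:23517067-23518654) overlapped 3 tRNA genes, among them n-TStga1, whose TSS region was described above. It had 7.01, 18.7 and 18.9 CPM at P14 and 38.1, 99.0 and 63.5 at P56 (2.31 ± 0.432 SE, adjusted p = 0.0108). P14 and P56 did not overlap in either peak. In all, 4 peaks (0.0155%) were higher and 1 (0.00386%) lower at an adjusted p below 0.1, and 9.12% of all peaks had every P56 library above every P14 library. Both calls were lost without P56 replicate 2, with log2 changes of 1.15 and 1.88 and adjusted p of 0.883 and 0.864. A further peak higher at P56, PK3479, 1920 bp from the start of Mdm4 and over 2 lysine tRNA genes, had 21.0, 24.9 and 37.9 CPM at P14 and 63.0, 96.1 and 95.2 at P56 (adjusted p = 0.0563). PK6410, within the phospholamban gene Pln and its neighbour Cep85l, had 94.7, 106 and 117 CPM at P14 and 167, 394 and 192 at P56 (adjusted p = 0.0767).

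Of the 6 peaks named as higher, 4 overlapped tRNA genes, so peaks over tRNA genes were gathered as a group after these values had been seen, and no test was made of it. Such genes are transcribed by RNA polymerase III from promoters inside the gene, and they supply the adaptors of protein synthesis. Of 402 tRNA genes with positions in RefSeq, 146 were overlapped by 85 tested peaks. By the unadjusted count 54 of the 85 (63.5%) were higher and 1 lower, where all peaks had 6.54% higher and 8.13% lower. The median difference of the group was 0.77 against 0.02 for all peaks, and 82 of the 85 were above 0. The group's share of all peak counts was 0.412%, 0.426% and 0.462% in the P14 libraries and 0.528%, 0.842% and 0.678% in the P56 libraries, so every P56 library lay above every P14 library. The 49 tRNA peaks farther than 1 kb from a gene start had a median of 0.88, and the 36 nearer ones 0.68. In the fit lacking P56 replicate 2, 26 were higher and 1 lower, where 586 and 855 of 25872 peaks were, and the median was 0.51. From P1 to P14 the median change of the same 85 peaks was -0.09, and 38 were above 0. The 1 lower peak, PK15069 (chr13:23400749-23403111), over 2 tRNA genes, had 87.7, 109 and 107 CPM at P14 and 47.3, 43.4 and 60.1 at P56. Polr3e, a subunit gene of RNA polymerase III itself, was among the 23 TSS regions above, with 50.0, 42.2 and 61.5 CPM at P14 and 77.5, 145 and 109 at P56, and its start peak PK57246 also overlaps a tRNA gene.

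Peaks at gene starts and outside protein-coding genes lay on opposite sides. Peaks farther than 1 kb from a gene start were split by protein-coding genes alone, so those outside genes may overlap other genes. Of 9036 peaks within 1 kb of a gene start, 11.2% were higher and 2.84% lower by the unadjusted count (median 0.24). Of 9009 peaks outside genes, 3.01% were higher and 13.8% lower (median -0.29), and 7840 peaks inside genes had a median of -0.01. The share of peak counts near gene starts was 40.3%, 42.4% and 41.0% in the P14 libraries and 42.9%, 50.8% and 45.1% in the P56 libraries. That is 41.2% ± 1.08 against 46.3% ± 4.07 (SD, n = 3), without overlap, and the exact permutation p of 0.1 is the smallest that 3 against 3 can give. The difference was 5.03 percentage points, and 2.77 without P56 replicate 2. Outside genes the shares were 29.5% ± 0.771 at P14 and 25.1% ± 3.11 at P56 (SD, n = 3, exact permutation p = 0.1). Libraries of 1 age also differed widely. At P1 the shares were 36.1%, 44.3% and 47.8% near gene starts and 32.7%, 28.1% and 26.5% outside genes. Without P56 replicate 2 the percentages of peaks higher and lower near gene starts were 3.00% and 1.06%, and outside genes 1.53% and 5.47%. Of the 6 named lower peaks, 5 lay outside genes in this sense. PK14301 among them overlapped the immunoglobulin locus Igh and the predicted genes Gm5660 and Gm9245. PK68264, 34965 bp from Pak3 on chromosome X, had 82.4, 115 and 126 CPM at P14 and 47.3, 35.8 and 50.1 at P56 (-1.27 ± 0.297 SE, adjusted p = 0.113).

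**Figure D4:**
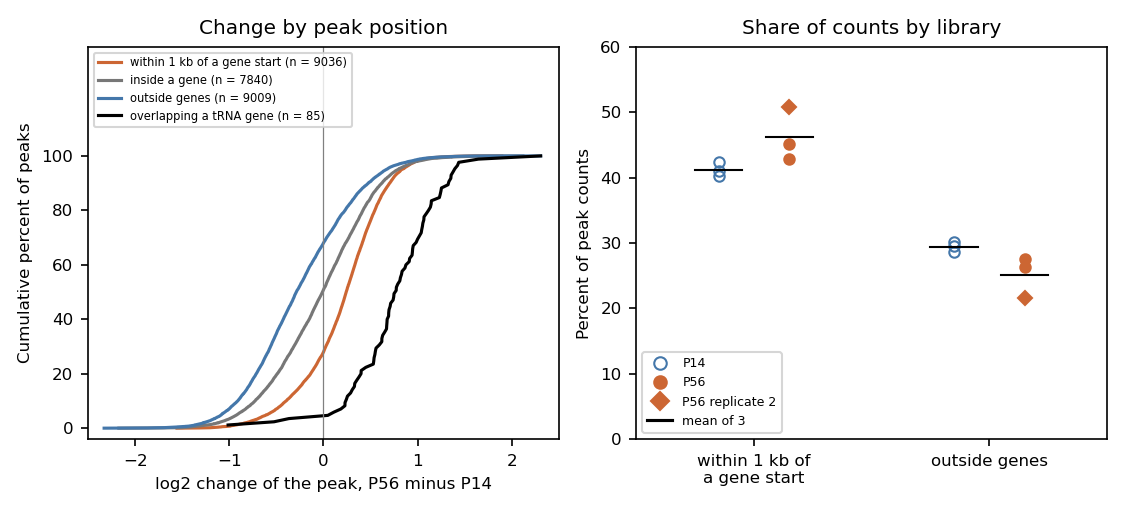
Left, cumulative percent of peaks by log2 change (P56 minus P14) for peaks within 1 kb of a gene start, inside genes, outside genes and over tRNA genes. Inside and outside refer to protein-coding genes alone. Right, share of each library's peak counts near gene starts and outside genes (open circles, P14; filled circles, P56; diamond, P56 replicate 2; bar, mean of 3), where the P56 libraries lie between 42.9% and 50.8% near gene starts and the P14 libraries between 40.3% and 42.4%.

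Peaks at gene starts may share reads with the TSS regions and are no separate measurement. Ciart's start peak had 36.8, 40.5 and 53.7 CPM at P14 and 76.2, 111 and 91.8 at P56 (1.12 ± 0.309 SE). Mief1's had 42.1, 28.0 and 34.7 CPM at P14 and 82.8, 109 and 75.1 at P56 (1.32 ± 0.314 SE). Ephb6, an Eph-family receptor gene, had 87.7, 84.0 and 85.2 CPM at its start peak at P14 and 52.5, 26.4 and 58.4 at P56 (-0.94 ± 0.302 SE). None of these 3 peaks was called, and none of the 3 overlapped between ages.

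The size of the difference went with abundance and base composition. With TSS regions cut into 10 equal bins by mean CPM, the median log2 difference was -0.07 in the lowest bin, -0.13 in bin 2, 0.13 in bin 9 and 0.12 in the highest bin, so that it did not climb at every step, and with 10 bins by promoter GC content it was -0.16 in the lowest and 0.16 in the highest. Across regions of the same libraries, Spearman's rho was 0.251 with promoter GC (n = 15807) and 0.222 with mean CPM (n = 33747), as a description. Promoters of genes with a higher P56 value and an unadjusted p below 0.05 had a median GC of 61.7%, of those with a lower value 52.0%, and of all tested genes 56.3%. Taken instead as a plain log2 ratio of mean CPM, the medians of the lowest and highest GC bins were -0.13 and 0.15 with all libraries. Leaving out P56 replicate 2, the medians of this ratio were -0.12 and 0.07. With loess offsets, which remove a trend with abundance, the list medians were 0.55 for oxidative phosphorylation, 0.58 for the sarcomere, 0.45 for glucose use, 0.38 for the clock, 0.32 for fatty acids, 0.21 for calcium handling, 0.10 for nuclear receptors, 0.41 for ribosomal proteins, -0.36 for endothelial markers and -0.43 for Polycomb targets. The part of GC content in the list values was not tested.

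**Figure D5:**
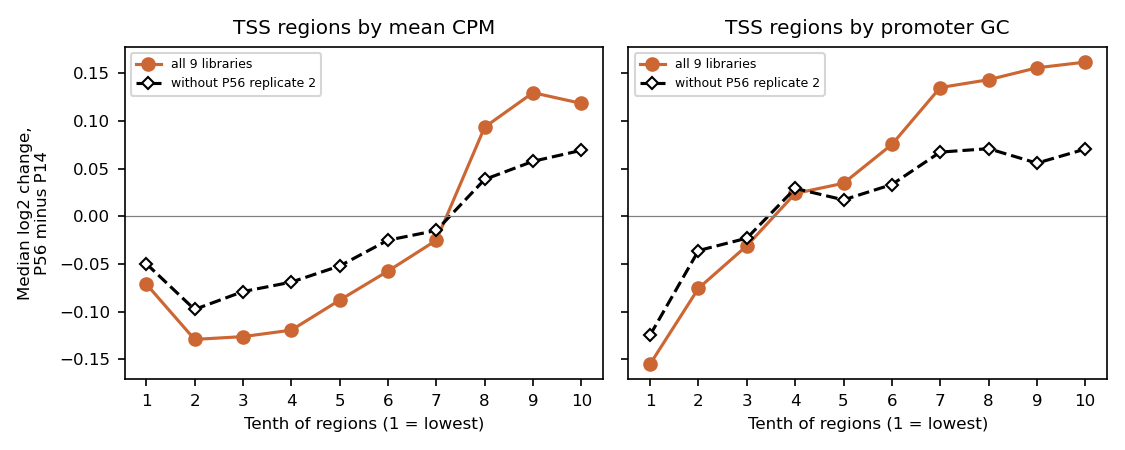
Median log2 change at the TSS (P56 minus P14) in 10 equal bins of regions ordered by mean CPM (left) and by promoter GC content (right). Filled circles are medians of edgeR's change with all libraries. Open diamonds leave out P56 replicate 2 and show another measure, the plain log2 ratio of mean CPM. The median runs from -0.16 to 0.16 over the GC bins with all libraries.

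The last contrast asked whether the change from P14 to P56 differed from that from P1 to P14, which share the P14 libraries. It called 3 of 33747 TSS regions (0.00889%), all lower in the later interval. They were the predicted genes Gm10800, Gm26917 and Gm10801, none of which was matched to a position in RefSeq. Gm10800 had 123, 181 and 146 CPM at P1, 270, 481 and 426 at P14 and 217, 184 and 315 at P56. Its change differed between intervals by -2.09 ± 0.308 (SE, edgeR adjusted p = 0.00338), while its P56 and P14 libraries overlapped. It called 2 of 25885 peaks (0.00773%), again lower in the later interval. No gene of the heart lists passed this test.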

How the data were processed

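The 9 ATAC-seq libraries of pooled mouse hearts measured open chromatin; 3 P14 and 3 P56 libraries enter the contrast. The authors deposited raw read counts per TSS region, whose width is not stated, and per peak. featureCounts 1.4.2 and bedtools 2.26 are named in the submitters' processing notes, beside MACS 1.4.0, BWA 0.7.10 and the GRCm38 build; SAMtools 1.3.1 and bcl2fastq 2.17.1.14 are listed too. Roles and settings are not given in the sources used here. No deposited region averaged under 10 counts, and weaker regions are not analysed here.

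Counts were fitted in R 4.3.3 with edgeR 4.0.16 (TMM scaling, default expression filter, 1 coefficient per stage over 9 libraries, quasi-likelihood test, two-sided, Benjamini-Hochberg adjustment over all regions, threshold 0.05); 33747 of 33844 TSS regions and 25885 of 25915 peaks were tested. CPM are TMM-scaled. The scripts were tested on simulated data. Single values per library were compared by an exact permutation test over 20 assignments. Alternatives used DESeq2 1.42.0 and limma 3.58.1.

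The comparison, its 24 gene lists (561 genes, 520 tested) and the rule for naming were chosen with earlier results of these data known. Named regions were all calls, the 10 TSS regions and 6 peaks in each direction with the largest changes among calls, filled up by the smallest p (mean count of at least 20, no overlap, predicted genes passed over), 2 members per list and a panel of heart genes. Clock genes beyond 2, Rhbdl1, the further regions of the 2-stage fit, peaks over tRNA genes, and Myl4, Gata5, Hand1, Igf1r, Tie1, Fli1, Esam and Col3a1 where outside that rule were named after their values were seen. Positions, tRNA genes and promoter sequences came from RefSeq (GRCm38.p6), in which 26086 TSS symbols (77.3%) matched. A gene start was a RefSeq promoter start or, for 4408 coding genes without one, either gene end. Other peaks were placed inside or outside genes by protein-coding genes alone. Promoter windows were 250 bases upstream.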

Additional observations from a re-analysis of the deposited data

Results flagged for a closer look

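The change from P14 to P56 differed from the change from P1 to P14 at 3 TSS regions and 2 peaks in edgeR's test of the difference, each with its level highest at P14. The difference (later minus earlier, log2) was -2.09 at Gm10800, -1.38 at Gm26917 (adjusted p = 0.0194) and -1.70 at Gm10801 (adjusted p = 0.0356). These 3 genes had no match in RefSeq, so their positions are not known here. Whether they share reads with each other or with the 2 peaks was not tested, and the regions may not be separate results. Gm26917 was deep, with 977, 1521 and 1356 CPM at P1, 1970, 3031 and 2567 at P14 and 1854, 1506 and 2340 at P56. Among peaks the difference was -2.11 at PK34880 (chr2:98665793-98667822) and -2.62 at PK68264 (chrX:143482560-143483626), both with an adjusted p of 0.0164. PK34880 had 230, 296 and 230 CPM at P1, 431, 710 and 679 at P14 and 327, 230 and 454 at P56. PK68264 had 37.8, 52.2 and 36.02 CPM at P1, and at P56 its libraries lay below those of P14 without overlap, which no other of these 5 regions showed. Both intervals share the P14 libraries, whose peak totals (316311 to 559445 counts) were below those of all other libraries, and the part of depth in these differences was not tested.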

How the results depend on the processing

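Of 2013 values of 106 named regions under the alternatives, 1857 kept direction and side of the threshold. A further 123 gained a call, 23 lost one and 10 reversed, none of the reversed being called. Only the regions called as reported could lose a call. Of 19 alternatives, Pnmt was called in 11, PK15076 in 11 and PK29010 in 12. Over single libraries left out, and with loess offsets (Actc1 -0.0438), the log2 differences of the 8 reversing genes ran from -0.350 to 0.352 for Actc1 (-0.209 without P14 replicate 1), -0.210 to 0.0231 for Cdk1, -0.235 to 0.0838 for Cdkn1a, -0.0491 to 0.506 for Gata4, -0.181 to 0.741 for Meis1, -0.237 to 1.36 for Pln, -0.129 to 0.731 for Ppargc1a and -0.0320 to 0.349 for Thra. The cause was not tested. TSS calls (1 as reported) were 12 at an adjusted p below 0.1, 0 below 0.01, 0 with DESeq2's size factors, 11 with library size alone, 0 at a mean count of at least 20, 0 with limma-voom, 23 in the 2 stages alone, 4 with loess offsets and 22 thinned to the shallowest library; DESeq2's Wald test gave 1. Lower regions among these were 1 with library size alone, 1 with loess offsets, 2 thinned, 8 with the replicate block, 1 without P1 replicate 1 and 3 without P56 replicate 1. Leaving out single libraries gave 0 to 101, with 0 without P1 replicate 2, P14 replicates 1 and 2 and P56 replicates 2 and 3, 4 without P1 replicate 3, 41 without P1 replicate 1 and 101 without P56 replicate 1. Peak calls (2) were 5 and 1 at those thresholds, 0 at a mean count of at least 20, with the DESeq2 Wald test, with limma-voom and with loess offsets, 14 in the 2 stages alone, 1 thinned, and 0 to 292 leaving out libraries, with 0 without P14 replicates 1 and 3 and P56 replicate 2, and 292 without P56 replicate 1. TSS calls for the difference between intervals (3) were 1 below 0.01, with DESeq2's size factors, at a mean count of at least 20 and with loess offsets, 0 with the DESeq2 Wald test and limma-voom, and 0 to 4 leaving out libraries. Such peak calls (2) were 0 below 0.01 and with limma-voom, 1 at a mean count of at least 20, with the DESeq2 Wald test and thinned, and 0 to 9 leaving out libraries. With the replicate number as a block the calls were 76 at the TSS, 41 in peaks, and 5 and 10 for the difference between intervals. Correlations of same-numbered deviations were -0.07 to 0.22 at the TSS and -0.18 to 0.45 in peaks. Those of differently numbered ones were -0.27 to 0.25 and -0.5 to 0.49, so the numbers were not taken to pair the libraries. In both, the lowest was P56 replicate 2 with P1 replicate 1 and the highest P56 replicate 2 with P1 replicate 3. The growth factor median was 0.00495 with library size and -0.00911 with loess offsets, and the chromatin median -0.0152 with loess offsets. Leaving out libraries, medians ran from 0.0360 to 0.166 for growth factors, -0.285 to 0.0671 for smooth muscle, -0.177 to 0.0651 for leukocytes, -0.150 to -0.0150 for the epicardium, 0.223 to 0.676 for glucose, 0.0627 to 0.434 for calcium, 0.0147 to 0.203 for G1/S, 0.159 to 0.582 for immediate early and 0.159 to 0.640 for ribosomal genes. Library size alone moved the median of all TSS regions from -0.02 to -0.08. P14 libraries had down to 481217 TSS counts, and the median TSS region held 16.3 counts per library; the part of depth in the number of calls is not settled by these values, since thinning to the shallowest library gave more TSS calls and fewer peak calls.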

Other observations

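Gene families outside the heart lists, gathered by symbol after the values had been seen and not tested, had medians on both sides of 0; over all TSS regions 6.04% were higher and 4.04% lower by the unadjusted count. Mitochondrial ribosomal protein genes, which build the ribosomes of the organelle, had 14 of 60 TSS regions higher and none lower by the unadjusted count (median log2 difference 0.35, median CPM 26.3 at P14 and 34.9 at P56). Proteasome subunit genes had 9 of 45 higher and none lower (median 0.25). Small nucleolar RNA genes, whose products guide modification of ribosomal RNA, had 4 of 27 higher and none lower (median 0.56). Tandem gene arrays had medians below 0: 937 olfactory receptor genes had 5 higher and 58 lower (6.19% lower, median -0.21), 210 vomeronasal receptor genes 2 and 6 (2.86% lower, under the share of all regions, median -0.25) and 117 immunoglobulin heavy chain variable segments 1 and 12 (10.3% lower, median -0.40, median CPM 11.8 at P14 and 9.14 at P56).

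Counts on the sex chromosomes were given for the pools as a whole. The share of TSS counts on chromosome X was 1.37% ± 0.0400 at P14 and 1.25% ± 0.0366 at P56 (SD, n = 3), without overlap (exact permutation p = 0.1, the smallest possible). The share of peak counts on chromosome Y was 0.283% ± 0.0240 and 0.211% ± 0.0297 (SD, n = 3, exact permutation p = 0.1). The other table gave overlapping libraries for each chromosome: the share of peak counts on X was 0.460% ± 0.0212 and 0.456% ± 0.0474 (SD, n = 3, exact permutation p = 0.9), and that of TSS counts on Y 0.0150% ± 0.000690 and 0.0142% ± 0.00143 (SD, n = 3, exact permutation p = 0.7).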
